A study of Mus musculus with 6 samples.

Results

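Aminoacyl-tRNA synthetases are the enzymes that join each amino acid to its transfer RNA, and 36 of them were followed here in cultured mouse myoblasts: 20 named as cytosolic and 16, whose names end in 2, as mitochondrial. The array annotation held 35 of the 36, with 19 cytosolic and 16 mitochondrial genes on 72 probe sets, out of 18193 genes on 34945 probe sets that had a single gene. The expression of Dars, the aspartyl enzyme of the cytosol, was not analysed here, and Mars is listed under its current symbol Mars1. Myoblasts, the dividing precursors of skeletal muscle, were isolated from hindlimb muscles of C57BL/6JRj males aged 9 to 15 weeks and kept for 72 hours on fibronectin (3 samples) or collagen I (3 samples), both proteins of the extracellular matrix. All 6 cultures had the same medium, Ham's F-10 with 20% fetal bovine serum, 2.5 ng/ml basic fibroblast growth factor and antibiotics, and no further agent or genetic change is given for either coating. RNA levels were read on an Affymetrix microarray, and the question was what the coating does to expression.

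The cytosolic enzymes charge transfer RNAs for ribosomes in the cytoplasm, and several of them sit together in a multisynthetase complex held by scaffold proteins. The mitochondrial enzymes, also encoded in the nucleus, are imported and charge the transfer RNAs used to make the few proteins encoded by mitochondrial DNA. Genes of many cytosolic synthetases are known targets of Atf4, a transcription factor of the amino acid response, which is switched on when the kinase Eif2ak4 senses uncharged transfer RNA.

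Most synthetases of the cytosol rose on fibronectin by small amounts, and the others did not pass the test in either direction. Of 19 tested, 11 passed limma's test higher on fibronectin at an adjusted p below 0.05 and 0 passed lower. Of the 10941 genes tested 40.1% passed, 19.9% higher and 20.2% lower. The median change of the 19 was 0.18 on the log2 scale, against 0.004 over all genes tested, and the 11 that rose did so by between 1.12-fold (Yars) and 1.23-fold (Gars). At an unadjusted p below 0.05, 12 were higher and 1, Qars, was lower. Of the mitochondrial enzymes 15 were bright enough to test, and 3 rose (Cars2, Nars2 and Yars2) and 0 fell, a share of 20% that lies beside the 19.9% of all genes. Their median log2 change was 0.07, and at an unadjusted p below 0.05, 6 of the 15 were higher and 0 lower. How many of all genes passed at the unadjusted threshold was not counted. The 19.9% and 20.2% therefore do not apply to the unadjusted counts, here or below. Whether the cytosolic share differed from the mitochondrial one was not tested. Without fibronectin sample 1 or without collagen sample 2 the cytosolic count was 7, and without fibronectin sample 2 or 3 the mitochondrial count was 1.

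**Figure D1:**
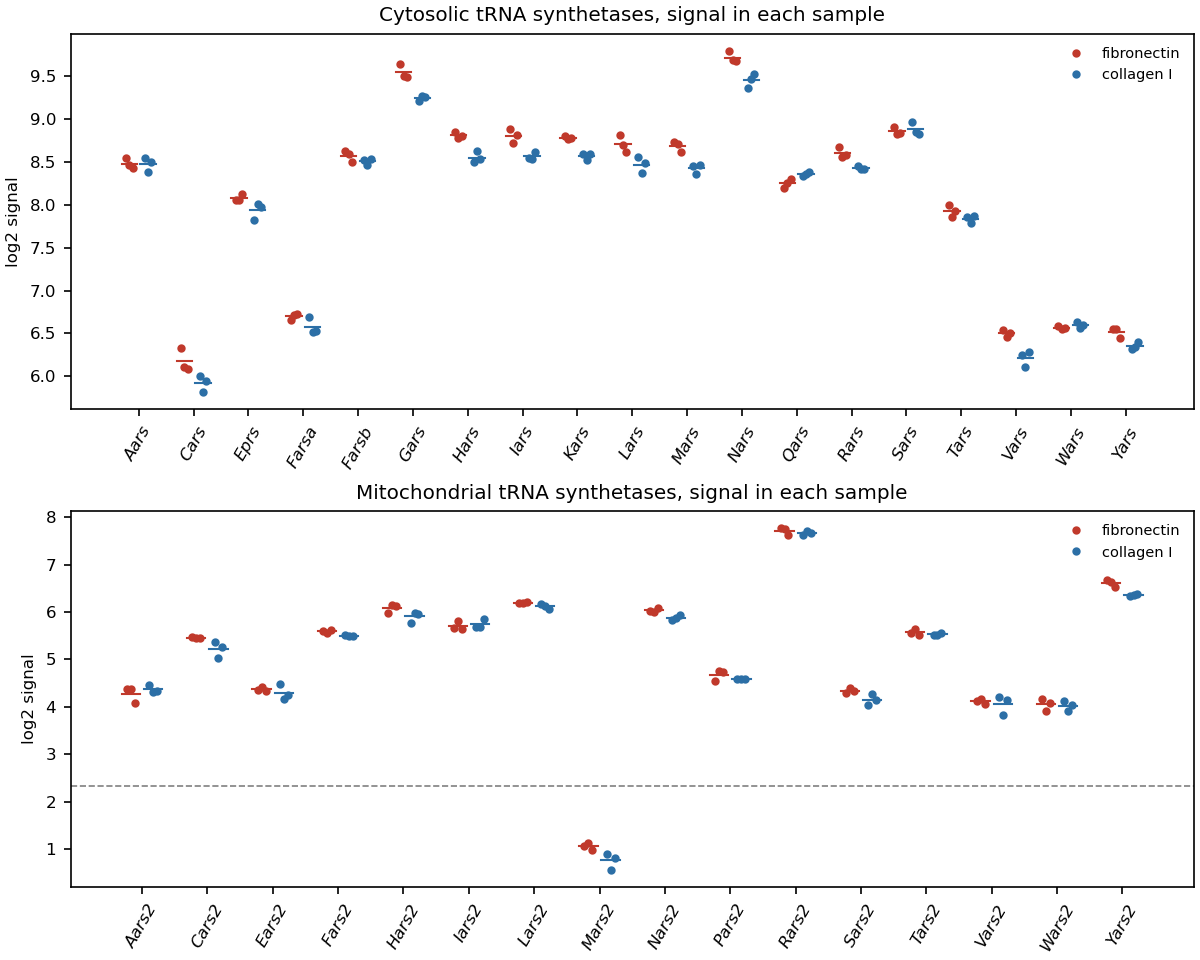
Signal of each synthetase in each sample (log2 signal of its brightest probe set), with fibronectin samples on the left of each gene and collagen I samples on the right, and a bar at each group's mean. Points of the 2 coatings do not overlap in 13 of 19 cytosolic genes, 12 of them higher on fibronectin, and in 6 of 15 tested mitochondrial genes; the dashed line marks the brightness filter of 2.33, below which only Mars2 lies.

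Over all genes tested, 27.4% had all fibronectin samples above all collagen samples and 25.9% had all of them below. Among the cytosolic synthetases 12 of 19 had the fibronectin samples above and 1, Qars, had them below, and among the mitochondrial ones 6 of 15 had them above and 0 below. Set against each gene's mean on collagen, the median cytosolic synthetase lay 0.24, 0.16 and 0.15 log2 units above it in fibronectin samples 1, 2 and 3, and between -0.03 and 0.02 in the collagen samples. For the mitochondrial enzymes these medians were 0.07, 0.11 and 0.08 in the fibronectin samples, and between -0.01 and 0.02 in the collagen samples. Fibronectin sample 1 was the highest of the 3 for the cytosolic genes and not for the mitochondrial ones.

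Some facts of the samples stand beside every result below. Whether the replicates are separate cultures or animals is not stated in the labels, so the p-values reflect only how these 6 samples spread, and that spread may be technical. All 7 myoblast markers were above the brightness filter, 1 of them higher (Cdh15) and 2 lower (Des and Myog) on fibronectin, and their summed linear signal lay between 2121 and 2211 on fibronectin and between 2218 and 2318 on collagen. Of 4 fibroblast markers only Col3a1 passed the filter and it rose, with summed signals of 724 to 776 on fibronectin and 613 to 675 on collagen. Of 4 leukocyte and macrophage markers Ptprc and Adgre1 lay below the filter. Csf1r lay above it and did not pass, at a log2 change of -0.03 (adjusted p = 0.821), while Cd68 had a log2 change of -1.28 and passed as lower. The summed signals of the 4 were 21.1 to 27.2 on fibronectin and 34.3 to 41.0 on collagen. All measured endothelial, adipocyte and erythroid markers lay below the filter, and 1 of 2 Schwann cell markers, Sox10, lay above it and did not pass the test. The difference between the 3' and the 5' probe sets of Gapdh, a sign of RNA integrity, was 0.33 to 0.39 log2 units on fibronectin and 0.33 to 0.46 on collagen, and that of Actb was 0.57 to 0.65 on fibronectin and 0.63 to 0.72 on collagen. The part of these differences in the results was not tested, and in bulk samples fewer cells of a type and less RNA per cell cannot be told apart.

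The promoters were searched for a short element that Atf4 and its C/EBP partners are known to bind, written TGATGNAA,  on both strands in the 250 bases before and the 50 bases after each annotated start (RefSeq, GRCm38.p6). It was found in 5 of 13 cytosolic synthetases with a promoter sequence, Dars among them, or 38.5% (Aars, Gars, Iars, Tars and Yars), in 0 of 14 mitochondrial synthetases, and in 4.51% of 27025 genes. Among 32 genes of the Atf4 response outside the synthetases, 10 held it (31.2%). Of the tested cytosolic synthetases, 3 of 5 with a match rose (Gars, Iars and Yars), at a median log2 change of 0.16, and 2 of 7 without one rose (Kars and Mars), at a median of 0.12. Cars, Hars, Lars, Nars, Rars, Vars and Wars, of which all but Wars rose, had no promoter entry and are not in these counts. Over all genes tested 19.9% rose and 20.2% fell. Yars passed in 8 of 14 settings, the reported one included. Whether a match goes with a rise was not tested. A match describes letters and shows no binding. The stretch from 130 bases before to 20 bases after the start is given for the 5 genes with a match and, for comparison, for Mars and Yars2, which rose and have none. Capitals mark the matches, and each line reads 5′ to 3′ along the gene's strand, on which a match of the opposite strand, as in all but Yars, appears as its reverse complement.
Aars: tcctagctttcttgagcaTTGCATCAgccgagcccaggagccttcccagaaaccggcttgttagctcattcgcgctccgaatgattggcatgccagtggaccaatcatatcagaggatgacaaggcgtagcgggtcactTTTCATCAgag
Gars: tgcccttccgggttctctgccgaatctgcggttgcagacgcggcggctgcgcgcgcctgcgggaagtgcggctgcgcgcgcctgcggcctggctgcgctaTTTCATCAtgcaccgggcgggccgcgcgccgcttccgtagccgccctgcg
Iars: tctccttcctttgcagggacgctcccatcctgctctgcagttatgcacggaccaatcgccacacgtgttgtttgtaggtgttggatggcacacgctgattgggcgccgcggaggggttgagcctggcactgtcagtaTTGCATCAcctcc
Tars: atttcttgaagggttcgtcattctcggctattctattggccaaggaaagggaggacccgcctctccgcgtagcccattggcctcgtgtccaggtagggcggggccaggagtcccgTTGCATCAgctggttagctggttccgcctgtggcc
Yars: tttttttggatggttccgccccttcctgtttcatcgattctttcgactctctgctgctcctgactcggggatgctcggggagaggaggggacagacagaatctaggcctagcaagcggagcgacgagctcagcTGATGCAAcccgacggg
Mars: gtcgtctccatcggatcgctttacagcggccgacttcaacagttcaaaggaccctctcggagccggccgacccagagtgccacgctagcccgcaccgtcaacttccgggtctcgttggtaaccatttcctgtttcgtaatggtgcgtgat
Yars2: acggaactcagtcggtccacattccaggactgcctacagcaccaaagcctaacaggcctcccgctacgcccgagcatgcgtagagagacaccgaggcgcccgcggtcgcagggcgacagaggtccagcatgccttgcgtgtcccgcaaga
On GRCm38.p6 the window of Aars lies at chr8:111033712-111033861 (plus strand), that of Gars at chr6:55037871-55038020 (plus strand), that of Iars at chr13:49682000-49682149 (plus strand), that of Tars at chr15:11399639-11399788 (minus strand), that of Yars at chr4:129189773-129189922 (plus strand), that of Mars at chr10:127311767-127311916 (minus strand) and that of Yars2 at chr16:16302835-16302984 (plus strand). Aars held a pair of matches, whose upstream ends lie 112 bases before and 9 bases after the start, and the upstream ends of the single matches lie 30 bases before it in Gars and 15 before it in Tars. In Iars and Yars they lie 7 and 3 bases after it. The E-box CACGTG, which Myc and its partners are known to bind and which overlapped none of the printed matches, was found in 4 of the 13 cytosolic promoters (Aars, Farsb, Iars and Tars), in 1 of the 14 mitochondrial ones (Ears2) and in 8.09% of all genes. The CCAAT box was found in 7 of 13, 6 of 14 and 41.1%.

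The glycyl, lysyl and asparaginyl enzymes rose. Gars, which charges glycine transfer RNA and, from a single gene, supplies both the cytosol and mitochondria, had log2 signals of 9.64, 9.50 and 9.49 in fibronectin samples 1 to 3 and 9.21, 9.27 and 9.26 in collagen samples 1 to 3. All of its fibronectin samples lay above all of its collagen samples, and the log2 change was 0.30 (SE 0.05, adjusted p = 0.00379), the largest among the synthetases tested. Kars, which likewise serves both compartments with lysine, had 8.81, 8.76 and 8.78 on fibronectin and 8.59, 8.52 and 8.59 on collagen. Its samples spread by at most 0.04 (SD) within a coating, and it rose 1.16-fold (adjusted p = 0.00632). Nars, for asparagine, had 9.80, 9.69 and 9.68 on fibronectin and 9.37, 9.47 and 9.53 on collagen, a rise of 1.20-fold (adjusted p = 0.00936). The coatings did not overlap for Kars or Nars, and the other probe set of Nars rose by 0.35 on the log2 scale.

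Among the enzymes of the multisynthetase complex, 5 of 7 tested rose (71.4%, against 19.9% over all genes) and 0 fell (against 20.2%). Mars, which charges methionine and so the initiator transfer RNA, had 8.73, 8.72 and 8.62 on fibronectin and 8.45, 8.37 and 8.47 on collagen. It rose 1.20-fold (adjusted p = 0.00573) without overlap of the coatings. Iars, for isoleucine, had 8.88, 8.73 and 8.81 on fibronectin and 8.55, 8.53 and 8.62 on collagen (log2 change 0.24, SE 0.05, adjusted p = 0.0106), and its second probe set rose by 0.30. Lars, the leucyl enzyme that also acts as a leucine sensor for mTORC1, had 8.82, 8.70 and 8.62 on fibronectin and 8.56, 8.37 and 8.48 on collagen. The groups of Lars came within 0.06 of each other, and it rose 1.18-fold (adjusted p = 0.0266). Rars, for arginine, had 8.68, 8.57 and 8.58 on fibronectin and 8.46, 8.42 and 8.42 on collagen, a rise of 1.13-fold (adjusted p = 0.0211). Kars was the fifth enzyme of the complex that rose. The call of Lars was lost without fibronectin sample 1 or 2 or collagen sample 2 or 3 (adjusted p between 0.0579 and 0.0861), and that of Rars without fibronectin sample 1 or collagen sample 2 or 3 (between 0.0546 and 0.0711). The count for the complex was 3 without any one of those last 3 samples.

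Eprs and Qars were the tested enzymes of the complex that did not pass. Eprs, a fusion enzyme for glutamate and proline, had 8.05, 8.05 and 8.12 on fibronectin and 7.82, 8.01 and 7.97 on collagen, with a log2 change of 0.14 and an adjusted p of 0.0981. Its fibronectin samples all lay above its collagen samples by the brightest probe set, whereas another probe set had a change of -0.11 (adjusted p = 0.114). Qars, which charges glutamine in the cytosol only, had a change of the opposite sign, with 8.20, 8.26 and 8.30 on fibronectin and 8.34, 8.37 and 8.38 on collagen. Its log2 change was -0.11 (95% interval -0.21 to -0.0037, adjusted p = 0.0916). Of its other probe sets 1 passed, lower on fibronectin at -0.20 (adjusted p = 0.0329). Of the scaffold proteins of the complex Aimp2 rose 1.18-fold (adjusted p = 0.00684), with 8.41, 8.33 and 8.31 on fibronectin and 8.17, 8.08 and 8.08 on collagen, while Eef1e1 and Aimp1 did not pass, at 0.11 and 0.06 on the log2 scale.

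The valyl, histidyl, cysteinyl and tyrosyl enzymes, which lie outside the complex, rose as well. Vars, for valine, had 6.54, 6.45 and 6.51 on fibronectin and 6.25, 6.11 and 6.28 on collagen, and rose 1.22-fold (adjusted p = 0.00618). Hars, for histidine, had 8.86, 8.78 and 8.81 on fibronectin and 8.50, 8.62 and 8.53 on collagen, and rose 1.20-fold (adjusted p = 0.00475). Neither overlapped between the coatings, but the second probe set of Hars had a change of 0.00 (adjusted p = 0.988). Cars, for cysteine, had 6.33, 6.11 and 6.09 on fibronectin and 6.00, 5.82 and 5.95 on collagen, a rise of 1.19-fold (adjusted p = 0.0342). Its second, dimmer probe set had a change of -0.10, and with both averaged the change of Cars was 0.08 (adjusted p = 0.362). Yars, for tyrosine, had 6.55, 6.56 and 6.44 on fibronectin and 6.32, 6.35 and 6.41 on collagen, the smallest rise of the 11 (1.12-fold, adjusted p = 0.0391). The call of Cars was lost without fibronectin sample 1 or collagen sample 2 or 3 (adjusted p between 0.0658 and 0.109), and that of Yars without fibronectin sample 1 or 2 or collagen sample 1 or 2 (between 0.0852 and 0.124).

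The alanyl, phenylalanyl, seryl, threonyl and tryptophanyl enzymes did not pass. Aars had 8.55, 8.47 and 8.43 on fibronectin and 8.55, 8.38 and 8.50 on collagen, a log2 change of 0.00 with a 95% interval from -0.13 to 0.14, and Sars had a change of -0.02 with an interval from -0.15 to 0.11. By their brightest probe sets the samples of both genes overlapped between the coatings. The other probe set of Aars did not overlap, with 7.54, 7.43 and 7.47 on fibronectin and 7.38, 7.26 and 7.38 on collagen. Its log2 change was 0.14, and it did not pass (adjusted p = 0.0934). Wars had a change of -0.03 (interval -0.13 to 0.07) by its brightest probe set, while the dimmest of its 4 probe sets rose by 0.27 (adjusted p = 0.0119). Farsa and Farsb, which encode the alpha and beta subunits of the phenylalanyl enzyme, had changes of 0.12 and 0.07, and Tars had 0.09 (adjusted p between 0.138 and 0.337). Farsa passed without collagen sample 1, at 0.18 (adjusted p = 0.0219). Of the 13 cytosolic synthetases commonly listed as Atf4 targets 8 rose (61.5%). Of the other 6 tested 3, Hars, Kars and Rars, rose (50%), with 0 lower in either set. The count of 8 was 5 without fibronectin sample 1 or collagen sample 2. By the enzymes' structural class, 7 of 9 tested in class I (77.8%) and 4 of 9 in class II (44.4%) rose, leaving out Eprs, which holds both. Over all genes tested 19.9% rose and 20.2% fell. The class I count was 3 without fibronectin sample 1 or collagen sample 2 and 4 without collagen sample 3.

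**Figure D2:**
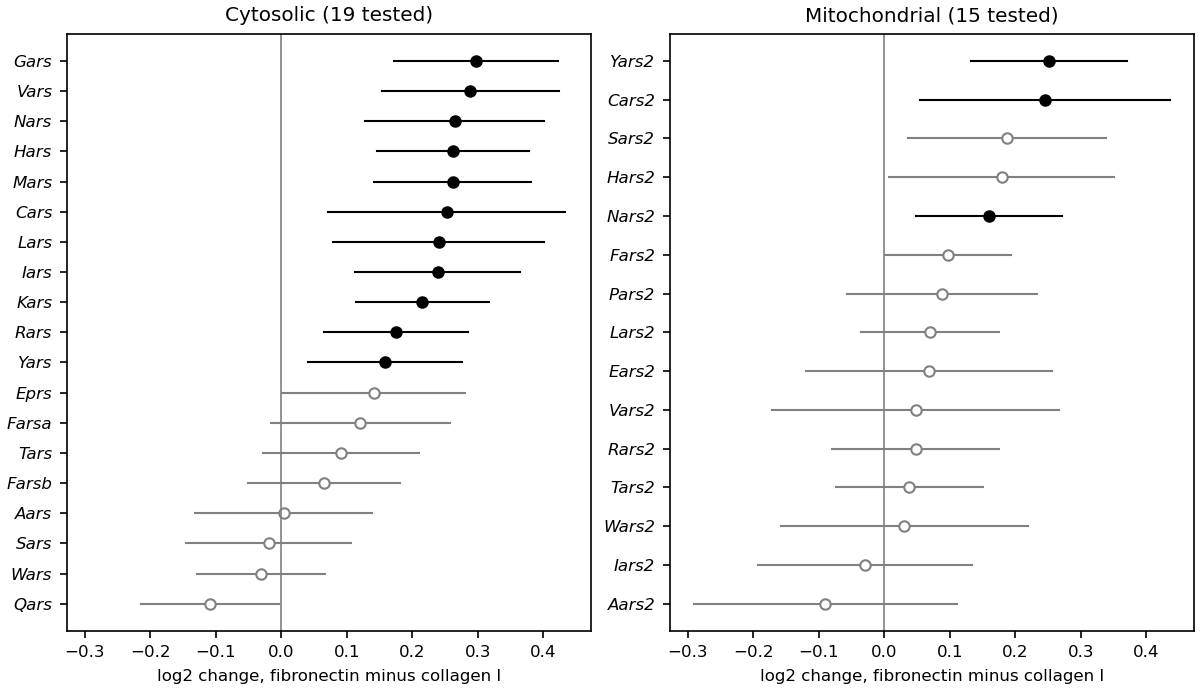
Change of each tested synthetase on the log2 scale (fibronectin minus collagen I) with its 95% interval from limma, cytosolic on the left and mitochondrial on the right, in order of size. Filled points passed an adjusted p of 0.05, and they number 11 of 19 and 3 of 15.

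Of the mitochondrial synthetases tested, Yars2, for tyrosine, had the largest change. Its log2 signals were 6.68, 6.64 and 6.53 on fibronectin and 6.34, 6.37 and 6.39 on collagen, a rise of 1.19-fold (SE 0.05 on the log2 scale, adjusted p = 0.00652), and its second probe set rose by 0.32. Cars2, for cysteine, had 5.48, 5.44 and 5.46 on fibronectin and 5.36, 5.02 and 5.26 on collagen. Its collagen samples spread more widely (SD 0.17) than its fibronectin samples (SD 0.02), and the rise of 1.19-fold had an adjusted p of 0.046. Nars2, for asparagine, had 6.01, 6.01 and 6.09 on fibronectin and 5.83, 5.86 and 5.93 on collagen, a rise of 1.12-fold (adjusted p = 0.0312). The coatings overlapped for none of these 3 genes. The call of Cars2 was lost without any 1 of the samples other than collagen sample 1 (adjusted p between 0.073 and 0.11), and that of Nars2 without any 1 of the samples other than collagen sample 3 (between 0.0607 and 0.106).

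The other mitochondrial members did not pass. Sars2, for serine, came nearest, with 4.29, 4.39 and 4.34 on fibronectin and 4.03, 4.26 and 4.15 on collagen (log2 change 0.19, adjusted p = 0.0516), and it passed without collagen sample 2, at 0.24 (adjusted p = 0.025). Hars2, which lies beside Hars in the genome and charges histidine in mitochondria, had a change of 0.18 with an adjusted p of 0.0893. Fars2 and Lars2 had the fibronectin samples above the collagen samples with changes of 0.10 and 0.07 (adjusted p = 0.098 and 0.259). Pars2 and Ears2 had 0.09 and 0.07, and each passed without 1 sample, Pars2 without fibronectin sample 1 at 0.16 (adjusted p = 0.0485) and Ears2 without collagen sample 1 at 0.16 (0.0471). Rars2, Vars2, Tars2 and Wars2 had changes between 0.03 and 0.05. Iars2 and Aars2, for isoleucine and alanine, had negative changes, -0.03 and -0.09, with the interval of Aars2 running from -0.29 to 0.11. Mars2, for methionine, was dimmer than the filter allows, with 1.07, 1.12 and 0.98 on fibronectin and 0.90, 0.56 and 0.80 on collagen, and was not tested.

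Mitochondria have no glutaminyl synthetase of their own. Ears2 first loads glutamate onto the glutamine transfer RNA, and an amidotransferase of the subunits Gatb, Gatc and Qrsl1 converts it. Gatc rose by 0.33 on the log2 scale (adjusted p = 0.00151), with 5.97, 6.02 and 5.92 on fibronectin and 5.60, 5.69 and 5.63 on collagen. Qrsl1 and Gatb did not pass, with changes of 0.08 and -0.08 (adjusted p = 0.163 and 0.343). In the wider list of charging genes outside the synthetases, 2 of 12 tested rose (16.7%) and 1 fell (8.33%). Over all genes tested 19.9% rose and 20.2% fell. Besides Gatc the called members were Prorsd1, a relative of the prolyl editing domain (1.23-fold higher, adjusted p = 0.00343), and Aarsd1, a relative of the alanyl editing domain (log2 change -0.15, adjusted p = 0.0408). No fall was called in this list without any 1 of the samples other than fibronectin sample 2.

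Where an amino acid has a cytosolic and a mitochondrial enzyme that were both tested, their changes could be set side by side in 14 pairs, Fars2 counting with both Farsa and Farsb. The cytosolic change was the larger in 10 pairs and the mitochondrial one in 4, with a median difference of 0.07 log2 units. The widest gap was that of isoleucine, where Iars had 0.24 and Iars2 -0.03, followed by valine (Vars 0.29, Vars2 0.05). The second probe set of Vars2, nearly as bright, had a larger change of 0.17 (adjusted p = 0.063 with all probe sets tested singly). Serine ran the opposite way (Sars -0.02, Sars2 0.19), as did tyrosine (Yars 0.16, Yars2 0.25), while cysteine had 0.25 in both compartments. These gaps were not tested. Median log2 signals in the fibronectin samples were 8.50 to 8.63 for the tested cytosolic enzymes and 5.51 to 5.57 for the mitochondrial ones. Changes of dimmer probe sets can be shrunk by RMA, and the part of brightness in the gaps was not tested.

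**Figure D3:**
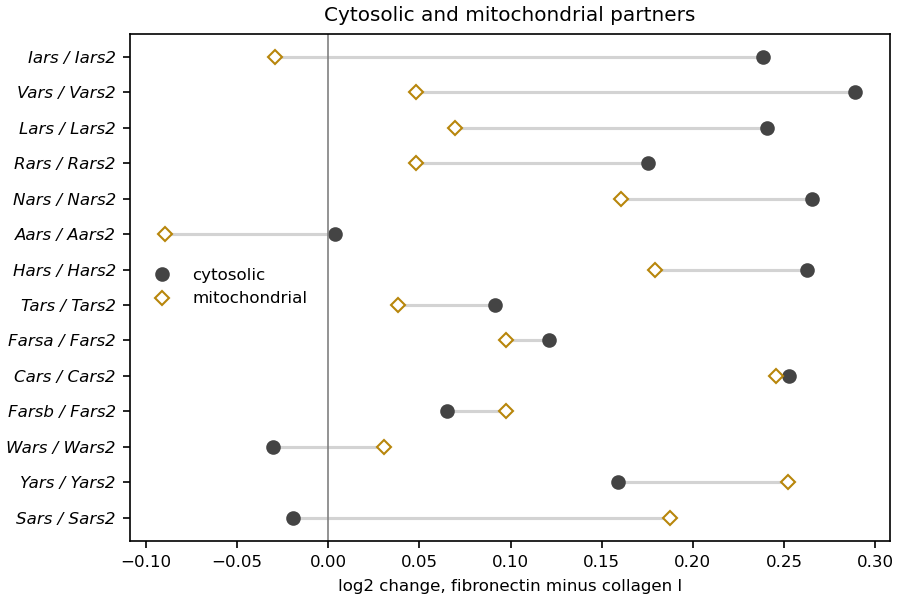
Changes on the log2 scale (fibronectin minus collagen I) of the cytosolic enzyme (dot) and the mitochondrial enzyme (open diamond) for the same amino acid, joined by a line and ordered by the gap. The dot lies to the right in 10 of 14 pairs, with the widest gap for isoleucine (0.24 against -0.03).

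The choice of probe set mattered for some members. Of the 72 probe sets 60 were bright enough to test singly, 37 cytosolic and 23 mitochondrial. Of the cytosolic ones 14 were higher and 1 lower, and of the mitochondrial ones 5 were higher and 0 lower, where 17.7% of 19440 probe sets were higher and 16.6% lower. All tested probe sets of Iars, Nars and Yars2 rose, and those of Sars and Qars all had negative changes. In Farsb, Wars, Tars2 and Wars2 a dimmer probe set rose while the brightest did not pass, with changes of 0.29, 0.27, 0.17 and 0.18, and in Hars and Cars only the brightest rose. Cars2 rose as a gene but neither of its tested probe sets passed when all probe sets were adjusted together (adjusted p = 0.0575 and 0.068).

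**Figure D4:**
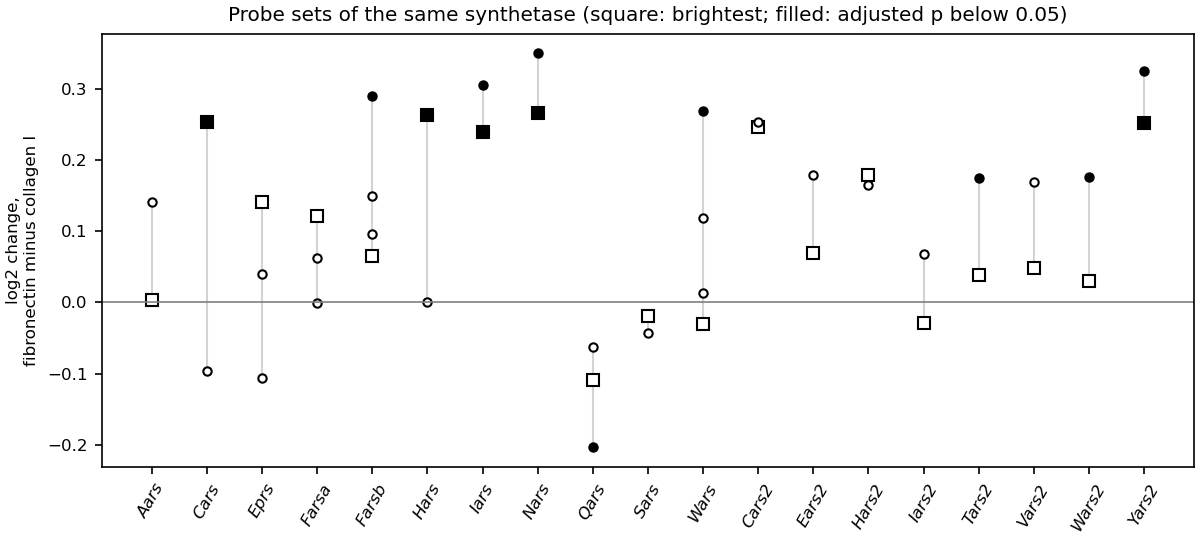
Changes on the log2 scale (fibronectin minus collagen I) of every tested probe set for the synthetases with more than 1, with squares for the brightest probe set of a gene and filled symbols for an adjusted p below 0.05 over all probe sets. Probe sets of Iars, Nars and Yars2 lie together above 0.2, while those of Cars, Eprs, Hars and Wars are spread apart.

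The steps around charging were described from other lists. Atf4 itself had 9.97, 9.83 and 9.82 on fibronectin and 9.53, 9.50 and 9.43 on collagen and rose 1.31-fold (adjusted p = 0.00127). Of 33 tested genes of its response outside the synthetases, Atf4 included, 20 rose (60.6%) and 3 fell (9.09%), at a median log2 change of 0.28. Over all genes tested 19.9% rose and 20.2% fell. Cth, Psat1, Phgdh and Cebpg had the smallest p, with rises of 2.72-fold, 1.78-fold, 1.58-fold and 1.39-fold; Cth makes cysteine, and Psat1 and Phgdh act in serine synthesis. The 3 that fell were Cebpb, Ddit3 and Ppp1r15a, stress response genes with changes of -0.27, -0.26 and -0.15. The falls called in this list numbered 0 without fibronectin sample 3, 1 without fibronectin sample 2 or collagen sample 2, 2 without collagen sample 1 or 3, and 4 without fibronectin sample 1. Of 11 tested genes that sense uncharged transfer RNA or act on the initiation factor eIF2, 4 rose (36.4%) and 2 fell (18.2%). Impact, an inhibitor of the sensing pathway, was lower (log2 change -0.50, adjusted p = 0.000239), with 7.22, 7.24 and 7.27 on fibronectin and 7.79, 7.77 and 7.66 on collagen, and Ppp1r15b, a phosphatase subunit for eIF2, rose 1.26-fold. Among the subunits of the exchange factor eIF2B, Eif2b2 was lower, at -0.21, and Eif2b1 and Eif2b5 were higher, at 0.20 and 0.27. All of these passed, while Eif2b3 and Eif2b4 did not, at 0.03 and 0.06. The sensor kinase Eif2ak4 had a change of -0.09 and did not pass (adjusted p = 0.241).

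Genes that make and finish transfer RNA also had more rises than falls, where 19.9% of all genes tested rose and 20.2% fell. For transcription by RNA polymerase III, 7 of 21 tested members rose (33.3%) and 1, Gtf3c2, fell (4.76%), at a median log2 change of 0.09. Polr3k and Polr3g, subunits of the polymerase, rose 1.27-fold and 1.30-fold (adjusted p = 0.00191 and 0.00617), and Gtf3a, the factor for the 5S ribosomal RNA genes of the same polymerase, and Bdp1, a subunit of the initiation factor TFIIIB, each rose by 0.20 on the log2 scale. The calls among these genes numbered 3 without fibronectin sample 1 or 2, 4 without fibronectin sample 3 or collagen sample 2, and 5 without collagen sample 3, with no fall called without any 1 of the fibronectin samples or collagen sample 2. For processing and export 8 of 22 rose (36.4%) and 0 fell, with 11 higher and 0 lower at an unadjusted p below 0.05. Pop1, Pop4 and Rpp30, subunits of RNase P, which trims the 5′ end, rose 1.40-fold, 1.27-fold and 1.18-fold, and Tsen15, a subunit of the splicing endonuclease, rose 1.16-fold. Xpot, which exports transfer RNA from the nucleus, had a change of 0.11 (adjusted p = 0.0955). For base modification 19 of 61 rose (31.1%) and 1 (1.64%), Gtpbp3, which acts on mitochondrial transfer RNA, fell (log2 change -0.18). Elp4, Qtrt2, Pus3 and Tyw3 had the smallest p, with changes of 0.25, 0.35, 0.24 and 0.31. The calls among modification genes numbered 11, 12 and 10 without fibronectin sample 1, fibronectin sample 2 and collagen sample 2.

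Genes that use charged transfer RNA had shares of called rises at or below that of all genes, although their median changes lay above it. The median log2 change was 0.08 for the cytosolic and 0.07 for the mitochondrial factors, against 0.004 over all genes tested. All fibronectin samples lay above all collagen samples in 6 of 12 cytosolic and 1 of 10 mitochondrial factors, and below them in 1 and 0. Over all genes those shares were 27.4% and 25.9%. Of 12 tested cytosolic elongation and release factors 2 rose (16.7%) and 0 fell, where 19.9% of all genes tested rose and 20.2% fell. The 2 were Eif5a2, by 0.26, and Abce1, a ribosome recycling factor, by 0.25 on the log2 scale. At an unadjusted p below 0.05, 4 of the 12 were higher and 1 lower. Of 10 mitochondrial translation factors limma called 0 in either direction, with 3 higher and 0 lower at an unadjusted p below 0.05, and 1 passed without collagen sample 2 or 3. With each sample centred on its median, 5 of the cytosolic and 4 of the mitochondrial factors passed, their direction not being given here. Over all genes, 4619 of 10941 passed with that centring, 2973 higher and 1646 lower.

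**Figure D5:**
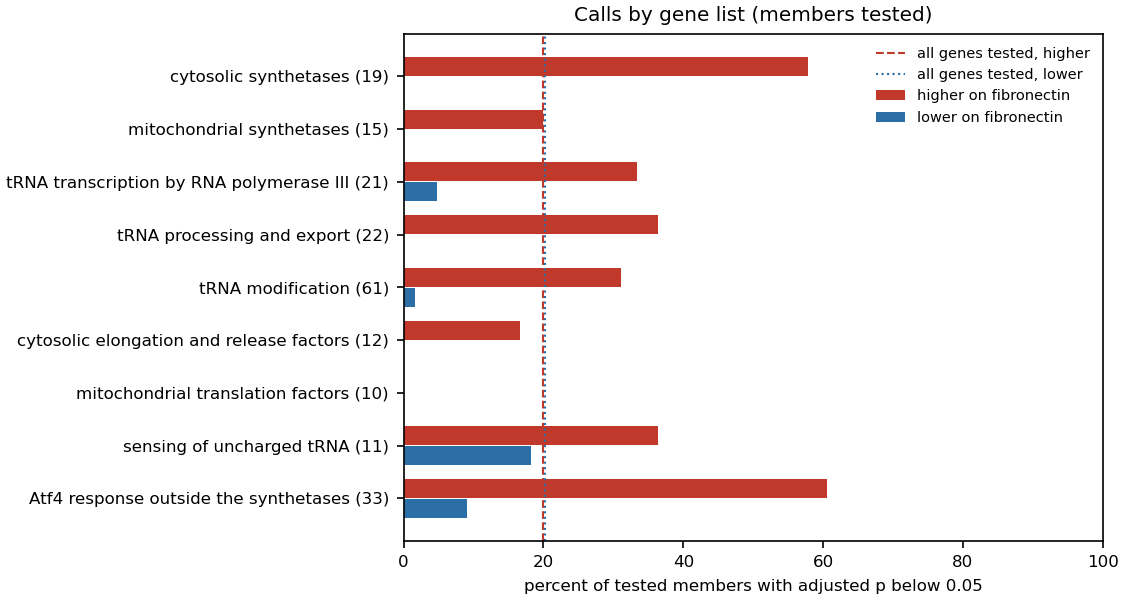
Percent of the tested members of each gene list that passed an adjusted p of 0.05 higher (upper bar) or lower (lower bar) on fibronectin, with the number tested in parentheses and lines at the percent over all genes tested (19.9% higher, 20.2% lower). The bars for rises reach 57.9% in the cytosolic synthetases and 60.6% in the Atf4 response, and 20% in the mitochondrial synthetases.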

How the data were processed

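Expression was measured on 1 Affymetrix mouse array per sample, and samples were grouped by their titles. The deposited values are log2 probe set signals, made with Expression Console and RMA per the submitters' processing notes. RMA removes background, quantile-normalises and summarises probes; it can shrink changes of dim probe sets and take out a shift common to most genes. Values ran from -0.172 to 12.7, with sample medians of 2.30 to 2.34 on fibronectin and 2.35 to 2.39 on collagen. Settings and scan batches were not analysed here, and the number of arrays limits the precision.

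Genes came from the platform annotation, with symbols updated through RefSeq (GRCm38.p6). The probe set with the highest mean stood for a gene, and the 10941 genes whose mean reached 2.33, the median over probe sets, were tested. limma (version 3.58.1, R 4.3.3) compared fibronectin minus collagen with no covariate, two-sided, and p-values were adjusted by Benjamini-Hochberg over those genes (threshold 0.05). An exact permutation test on 3 against 3 samples reaches 0.1 at best, so none was used. The fit was tested on simulated data. Python 3.11.15 and matplotlib 3.10.9 drew the figures.

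The members and lists were chosen with earlier results of these data known. All synthetases are named, and from each other list up to 4 members past the threshold by smallest p, plus Gatb, Gatc, Qrsl1, Xpot, Eif2ak4 and Atf4. Other genes named, such as those that fell, Eif2b3, Eif2b4, Eif2b5, Eef1e1 and Aimp1, were chosen after their values were seen. Alternatives were other brightness filters, repeated quantile normalisation, centring, averaged or single probe sets, an intensity trend with robust variance, the replicate number as a block, and leaving out each sample.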

Additional observations from a re-analysis of the deposited data

How the results depend on the processing

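Over 13 alternatives, each with 1 value a gene, 7 cytosolic synthetases (Gars, Hars, Iars, Kars, Mars, Nars and Vars) and 1 mitochondrial one (Yars2) passed in every setting, and 3 cytosolic and 7 mitochondrial members passed in none, although single dimmer probe sets of Wars, Tars2 and Wars2 did when all probe sets were tested singly. Of 436 alternative values of single members 384 kept their call, 32 lost it, 19 gained it and 1 called value changed sign: Nars2 had -0.0005 with its probe sets averaged. A further 16 values, of 8 members, changed sign without a call in either setting. The cytosolic count of 11 was 7 with no brightness filter, which adjusts over more genes, and between 7 and 11 when 1 sample was left out. With averaged probe sets 11 cytosolic synthetases were higher and 1, Qars, was lower. An intensity trend with robust variance gave 12 higher and 1 lower, again Qars. The mitochondrial count of 3 was 1 with no filter, 5 with samples centred, and between 1 and 3 when 1 sample was left out. With all probe sets tested singly, 5 of 23 mitochondrial probe sets were called, a count of probe sets and not of genes. Over all 10941 genes tested, 4384 were called (40.1%), and between 3431 and 4137 when 1 sample was left out. With all probe sets tested singly, 6667 of 19440 probe sets were called (34.3%). Centring moved the median change of all genes by 0.05 and the split to 2973 higher and 1646 lower, or 64.4% higher in place of 49.6%, with 13 cytosolic and 5 mitochondrial synthetases higher and 0 lower. The falls of Aarsd1, Gtf3c2 and Gtpbp3 did not pass with samples centred, nor did that of Aarsd1 with no filter, with all probe sets tested singly or with the replicate block, or that of Gtf3c2 with no filter or averaged probe sets, or that of Gtpbp3 with averaged probe sets. The counts of calls in 14 other lists moved by over 1.5 times in 43 of 196 cases. Whether the replicate numbers pair the samples was not tested. The deviations of same-numbered samples correlated at 0.10, -0.01 and 0.08, and those of differently numbered samples at between -0.139 and 0.097. The fit with the replicate block gave 4178 calls over all genes, with 10 among the cytosolic synthetases and 5 among the mitochondrial ones. In that fit Yars lost its call (adjusted p = 0.0746), and Hars2 and Sars2 gained one. Where a cause is not named it was not tested. Log2 changes had a median SE of 0.06, which limits how small a change could be called.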
